A study of Mus musculus with 16 samples.

Results

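Interferon-stimulated genes are the genes that cells switch on when interferon binds its receptor, and their transcripts were counted here in bone marrow stromal cell (BMSC) cultures of mice lacking Dmp1, Fgf23 or both. The set was a list of 39 genes known to respond to interferon, drawn up with earlier results of these data known. Of these, 37 were among the 32285 features of the count matrices. Mx1 and Mx2 were not matched and are not analysed here. The cultures came from 12-week-old littermates on the C57BL/6J background, all carrying floxed Fgf23 alleles. WT mice were Dmp1+/+ Fgf23 fl/fl without Cre, and Fgf23cKO mice were Dmp1+/+ Fgf23 fl/fl with Dmp1-cre, a Cre driven by the Dmp1 promoter, which acts in osteocytes and late osteoblasts. Dmp1KO mice were Dmp1-/- Fgf23 fl/fl without Cre, a global knockout, and Dmp1KO/Fgf23cKO mice were Dmp1-/- Fgf23 fl/fl with Dmp1-cre. Cells were grown for 21 days with 10 mM β-glycerophosphate and ascorbic acid, sorted with the dead-cell dye 7-AAD and sequenced as single cells.

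Cultures were marked with CellPlex tags and loaded in 1 droplet reaction per genotype, so that the genotype and the reaction cannot be told apart in any comparison below. The tagged cultures analysed were 3 of WT, 3 of Fgf23cKO, 2 of Dmp1KO (numbers 2 and 3) and 3 of Dmp1KO/Fgf23cKO. The sample numbered 4 of each genotype holds, by the study's methods, cells of the same pool to which no tag could be assigned. The study describes individual cultures and as many mice per genotype, and p-values measure the spread between these cultures, which shared 1 reaction. In all, 17793 cells were analysed, 5604 of WT, 2923 of Fgf23cKO, 6439 of Dmp1KO and 2827 of Dmp1KO/Fgf23cKO. The median depth of tagged cultures was 7137 to 7276 UMIs (unique molecular identifiers, 1 per captured transcript) per cell in WT, 29753 to 34988 in Fgf23cKO, 20017 to 22186 in Dmp1KO and 32378 to 33881 in Dmp1KO/Fgf23cKO, and depth therefore moved with genotype. Dmp1 itself, the targeted gene, was counted 3530 times in WT, 4665 in Fgf23cKO, 5 in Dmp1KO and 175 in Dmp1KO/Fgf23cKO. Fgf23 was counted 9, 10, 2 and 1 times in the same order, too few to check its deletion. No barcode was shared between samples of the same genotype, and 44 were shared between samples of different genotypes.

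Cells were clustered, and clusters were named only from marker genes. Myeloid-like cells, which expressed Lyz2, Tyrobp and C1qa, numbered 11785 in 9 of 20 clusters. Stromal-like cells, which expressed Col1a1, Sparc and Bglap, numbered 1650 in 4 clusters. The other 4358 cells stayed unnamed, because they were shallow, led by osteoclast genes or mixed. Myeloid-like clusters were split by genotype. Cluster 1 held 3069 WT cells of 3143, and clusters 2, 3 and 7 held 1060 of 1393, 1206 of 1261 and 880 of 918 Dmp1KO cells, while cluster 0 held 923 Fgf23cKO, 781 Dmp1KO and 1435 Dmp1KO/Fgf23cKO cells of 3197. Cluster 8, led by histone genes, and cluster 11, led by mitotic genes, held cells of every culture. Differences between genotypes in myeloid-like cells are therefore given over the whole class and, where it matters, in clusters 8 and 11 alone, an alternative that was added after the data were seen.

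Interferons act through surface receptors and Janus kinases. Type I interferons lead to a complex known as ISGF3, which holds Stat2 and Irf9 and binds a DNA motif called the interferon-stimulated response element (ISRE). Interferon gamma acts mainly at a different motif, the gamma-activated site (GAS). The genes induced this way include sensors of foreign nucleic acid, factors that feed back on the pathway, and proteins that block steps of a virus's life in the cell. In bone, interferons are known to restrain osteoclast formation from myeloid precursors, and macrophages keep a low tonic level of many of these genes.

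The promoters of the members were read from RefSeq (build GRCm38.p6) as the 250 bases before and 50 bases after each start site, for 30 of the 39 members and 35 promoters in all. The ISRE core was searched as GAAA, any 2 bases and GAAA again, and the GAS as TTCNNNGAA, each on both strands. The ISRE core was found in 18 of 35 member promoters (51.4%), belonging to 17 members, against 3.44% of the 32851 promoters in the table. The GAS was found in 8 of 35 (22.9%) against 8.30% of all promoters, and both were found in 4 of 35 against 0.454%. In 8 members a promoter held at least 2 ISRE cores, which 0.225% of all promoters did. Of the 27 ISRE matches, 20 began within 150 bases before the start site, and 1 GAS match, in Bst2, overlapped an ISRE match. Stretches of 160 bases at the start site are shown for members whose levels are described below, because Isg15, Ifit1 and Ifit3 carry the cores in tandem, Rsad2 carries 1, Bst2 carries a pair beside a GAS match and Ifi44 carries none in this window. Capitals mark the ISRE matches, and each stretch is written 5′ to 3′ on the strand of its gene.

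Isg15: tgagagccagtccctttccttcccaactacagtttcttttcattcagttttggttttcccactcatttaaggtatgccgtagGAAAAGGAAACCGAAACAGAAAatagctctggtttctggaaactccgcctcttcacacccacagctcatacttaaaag
Ifit1: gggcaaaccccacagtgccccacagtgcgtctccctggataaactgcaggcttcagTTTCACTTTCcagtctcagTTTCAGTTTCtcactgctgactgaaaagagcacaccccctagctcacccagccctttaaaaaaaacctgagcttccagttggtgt
Ifit3: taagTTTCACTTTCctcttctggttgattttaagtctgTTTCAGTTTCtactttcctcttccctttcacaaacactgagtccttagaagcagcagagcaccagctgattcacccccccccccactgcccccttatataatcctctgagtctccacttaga
Rsad2: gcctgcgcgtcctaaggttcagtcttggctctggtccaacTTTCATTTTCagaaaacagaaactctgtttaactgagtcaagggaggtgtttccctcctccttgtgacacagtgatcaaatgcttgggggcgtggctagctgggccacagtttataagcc
Bst2: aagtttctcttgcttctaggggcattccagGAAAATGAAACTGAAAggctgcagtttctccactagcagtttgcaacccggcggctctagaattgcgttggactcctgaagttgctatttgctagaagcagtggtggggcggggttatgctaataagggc
Ifi44: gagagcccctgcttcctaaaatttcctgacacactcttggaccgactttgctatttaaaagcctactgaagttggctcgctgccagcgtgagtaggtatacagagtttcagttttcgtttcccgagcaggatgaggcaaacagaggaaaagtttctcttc

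These stretches lie at chr4:156200819-156200978 (minus strand, Isg15), chr19:34640729-34640888 (plus strand, Ifit1), chr19:34583369-34583528 (plus strand, Ifit3), chr12:26456453-26456612 (minus strand, Rsad2), chr8:71537473-71537632 (minus strand, Bst2) and chr3:151749911-151750070 (minus strand, Ifi44). In Isg15 the 3 overlapping cores form 1 run, and in Bst2 the pair of cores overlaps in the same way. In Ifit1, Ifit3 and Rsad2 the cores read on the opposite strand, and those of Ifit1 and Ifit3 lie apart. A match is a description of the letters, and no match says only that these letters are not in this window.

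Of all UMIs of the members, Ifi27l2a, a small hydrophobic interferon-induced protein (chr12:103442167-103443680, minus strand, GENCODE M21 on GRCm38), took 24.3% (121226 UMIs). Bst2, the membrane protein tetherin that holds budding virus at the cell surface (chr8:71534255-71537456, minus strand), took 20.9% (104225 UMIs). Samhd1, which depletes deoxynucleotides, took 7.15%, Ifi204, a DNA sensor, 5.62%, Trim30a, a TRIM family protein, 4.82%, and Parp14, an ADP-ribosyltransferase, 3.06%. A sum over the list thus weighs Ifi27l2a and Bst2 most.

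Levels are given below per culture, in numeric order of the cultures, as CPM, which is the counts-per-million scale applied to the summed UMIs of a class on TMM-scaled libraries (TMM is edgeR's scaling for composition). In myeloid-like cells Ifi27l2a stood at 397, 402 and 418 in WT, 219, 217 and 225 in Fgf23cKO, 615 and 636 in Dmp1KO and 224, 215 and 258 in Dmp1KO/Fgf23cKO. Bst2 stood at 214, 246 and 237 in WT, 357, 410.5 and 298 in Fgf23cKO, 223 and 231 in Dmp1KO and 521, 555 and 522 in Dmp1KO/Fgf23cKO. Ifi27l2a was highest in Dmp1KO and Bst2 highest in Dmp1KO/Fgf23cKO, with no overlap between those groups and the other 3. Samhd1 ranged from 90.5 to 114 across all 11 cultures, Trim30a from 62.9 to 97.0, Ifi204 from 65.3 to 94.8 and Parp14 from 42.4 to 62.8. The remaining members lay below 50 CPM in every culture. Among the lowest was Ifi44, at 0.508 to 5.20.

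In stromal-like cells the highest were Bst2, Samhd1, Ifi204, Ifi27l2a, Irgm1 and Xaf1. Bst2 stood at 56.1, 81.5 and 62.1 in WT, 88.7, 58.8 and 82.5 in Fgf23cKO, 39.2 and 57.9 in Dmp1KO and 75.7, 61.6 and 119.7 in Dmp1KO/Fgf23cKO. Samhd1 stood at 72.0, 81.5 and 98.5 in WT, 58.6, 60.4 and 58.0 in Fgf23cKO, 44.6 and 60.5 in Dmp1KO and 79.7, 69.3 and 75.3 in Dmp1KO/Fgf23cKO. Both lay at similar levels in all genotypes next to the spread among cultures, except that Samhd1 was lower in Fgf23cKO and Dmp1KO than in WT. Ifi204 ranged from 36.9 to 65.0 and Irgm1, a GTPase of the immunity-related family, from 20.1 to 41.2 across the 11 cultures. Because the counts are 3′ tags, with 1 tag per transcript, levels were not divided by gene length.

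Genes of the myeloid cells were also counted in the stromal sums. The summed level of 18 myeloid markers reached 5.57 to 14.6% of their myeloid level there, with a median of 8.20% over the 11 cultures. The stromal level of Ifi27l2a was 3.68 to 19.4% of its myeloid level (median 7.21%), so that the median lay among the marker ratios while single cultures ran past them on both sides, and that of Bst2 10.3 to 30.8% (median 22.9%). For 30 of the 37 members the median ratio was above the highest of these marker ratios, and for 7 it was below. For 3 members, Gbp2, Ifi44 and Irgm1, the stromal level was the higher, with medians of 178, 181 and 128%. The stromal values of Ifi27l2a, Oas1a, Oas2, Oas3, Trim30a, Rsad2 and Cmpk2, the members below that ratio, are given below with that limit, and how much of them was stromal RNA was not tested.

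A score was taken per cell as the members' UMIs per 10000 UMIs. Over all cells it had a mean of 13.2 and a median of 10.0, with 15.6 in myeloid-like, 5.72 in stromal-like and 9.43 in unnamed cells. In 1624 cells (9.13%) no member was counted, and these cells had a median depth of 1049.5 UMIs. The mean score of myeloid-like cells per tagged culture was 15.4, 16.1 and 15.5 in WT, 14.4, 16.1 and 12.4 in Fgf23cKO, 14.7 and 15.5 in Dmp1KO and 17.4, 17.9 and 17.1 in Dmp1KO/Fgf23cKO. It was highest in Dmp1KO/Fgf23cKO, where all 3 cultures lay above those of the other genotypes, and the Fgf23cKO cultures spread widely across the WT and Dmp1KO values. The differences were 1.81 to WT and 2.38 to Dmp1KO, both with an exact permutation p of 0.1 (two-sided, Benjamini-Hochberg adjusted 0.16 over 8 comparisons), the smallest p that 3 against 3 or 3 against 2 cultures allow. Without Ifi27l2a the genotype means were 11.6 in WT, 12.1 in Fgf23cKO, 9.75 in Dmp1KO and 15.2 in Dmp1KO/Fgf23cKO, so that the Dmp1KO mean moved from near the WT level to below it. Without Bst2 they were 13.2, 10.4, 13.2 and 11.8, and the difference of Dmp1KO/Fgf23cKO turned to -1.40 against WT and -1.34 against Dmp1KO (exact permutation p = 0.1 each). The higher score of Dmp1KO/Fgf23cKO was therefore not seen without this 1 gene. The difference of Dmp1KO/Fgf23cKO to WT also depended on how cells were classed, and was 0.432 with classes drawn from marker UMIs per cell and 0.137 with the unnamed clusters joined to the nearer class.

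The mean score of stromal-like cells was 4.85, 6.67 and 5.83 in WT, 3.81, 3.11 and 3.44 in Fgf23cKO, 4.03 and 5.12 in Dmp1KO and 3.84, 3.24 and 3.85 in Dmp1KO/Fgf23cKO. All WT cultures lay above all Fgf23cKO and Dmp1KO/Fgf23cKO cultures. The differences to WT were -2.33 in Fgf23cKO and -2.14 in Dmp1KO/Fgf23cKO (exact permutation p = 0.1 each, adjusted 0.16), and -1.21 in Dmp1KO (exact permutation p = 0.3, adjusted 0.343). With these numbers of cultures no score difference could pass the threshold of an adjusted p under 0.1. Depth per cell differed between genotypes as given above. When cells were thinned to 1300 UMIs, with shallower cells left out, the same 4 myeloid means were 15.8, 14.6, 14.97 and 17.9. Because thinning keeps the expected score of a cell, these means cannot show whether depth bears on the score.

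**Figure D1:**
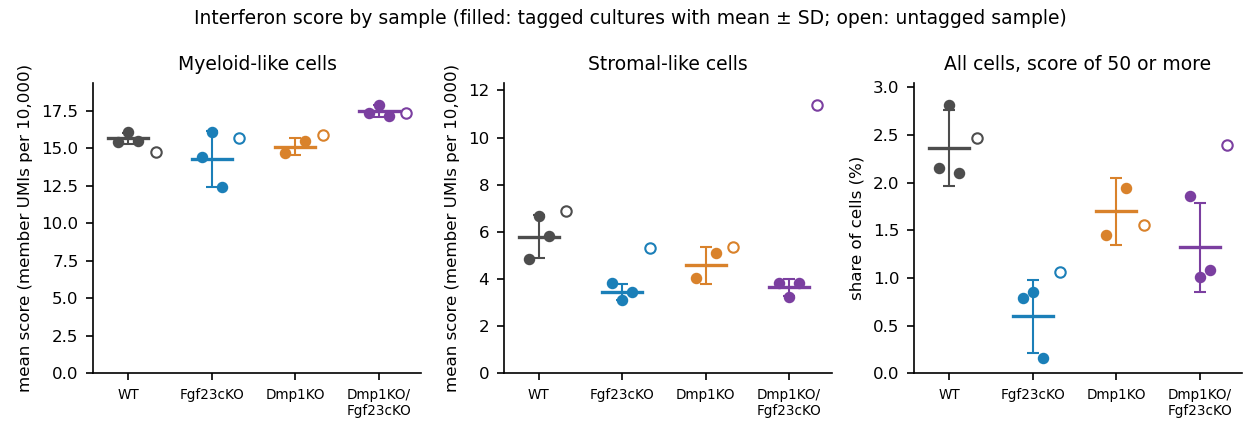
Interferon score (members' UMIs per 10000) as the mean per sample in myeloid-like cells (left) and stromal-like cells (middle), and the percent of cells with a score of at least 50 (right). Filled points are tagged cultures with the mean and SD per genotype, open points the untagged sample. Myeloid means run from 12.4 to 17.9 with Dmp1KO/Fgf23cKO on top, stromal means of tagged cultures from 3.11 to 6.67 with WT on top, and the untagged Dmp1KO/Fgf23cKO sample stands apart at 11.4 in stromal-like cells. Classes are by cluster, and that sample held 179 stromal-like cells by cluster and 62 by marker UMIs per cell.

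Cells with a score of at least 100, a cut on a continuous range, numbered 27 (0.152%). Just below it 22 cells had scores of 90 to 100, and just above it 4 had 100 to 110, with the nearest cells at 99.2 and 100.2. Of the 27, 19 were myeloid-like, 1 was stromal-like and 7 were unnamed. The members detected per cell had a median of 27 in these cells against 8 in the others. As the cells were picked by the UMIs of these same members, this contrast is a description and was not tested. In 19 of the 27 at least 20 members were counted, so that the score spread over most of the list. In 7 Ifi27l2a was the leading member, with up to 98.4% of the members' UMIs, and 4 had fewer than 2000 UMIs, so that 7 to 19 UMIs made up the score.

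The highest score, 321, was in a WT cell of 4083 UMIs in which 28 members were counted and Rsad2, the radical-SAM enzyme viperin, led with 17.6% of their UMIs. A Dmp1KO/Fgf23cKO cell of 28432 UMIs had a score of 209 with all 37 members counted, and a WT cell of 7725 UMIs had 207 with 29 members. In both Ifit3 led. The only stromal-like cell, with 113658 UMIs, belonged to the untagged Fgf23cKO sample and had 34 members counted at a score of 107.5. Pooled over the 27 cells, Ifit3 took 10.4% of the members' UMIs against 0.695% in the other cells, Isg15 7.71 against 1.36%, Rsad2 7.48 against 0.752% and Ifit1 6.88 against 0.565%. Bst2 took 7.03 against 21.1% and Ifi27l2a 9.23 against 24.5%. These shares describe cells picked by the same UMIs and were not tested.

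By sample the share of such cells was 3 of 1114, 5 of 1987 and 3 of 1854 in WT, 0 of 509, 1 of 470 and 0 of 632 in Fgf23cKO, 3 of 2825 and 3 of 2776 in Dmp1KO and 1 of 969, 3 of 888 and 0 of 553 in Dmp1KO/Fgf23cKO. In percent the means per genotype were 0.228, 0.0709, 0.107 and 0.147, and with cells thinned to 1300 UMIs they were 0.325, 0.155, 0.224 and 0.329. The highest share, 0.338% in culture 2 of Dmp1KO/Fgf23cKO, had an exact Clopper-Pearson 95% interval of 0.0697 to 0.984%, which covered the share of every other culture that held such a cell. Intervals and limits cover counting error only. A count of 0 allowed up to 0.589% in culture 1 and 0.475% in culture 3 of Fgf23cKO and 0.543% in culture 3 of Dmp1KO/Fgf23cKO. No difference between genotypes was detectable at these counts (exact permutation p = 0.2, 0.2, 0.6 and 1 for Fgf23cKO, Dmp1KO and Dmp1KO/Fgf23cKO against WT and for Dmp1KO/Fgf23cKO against Dmp1KO). At a score of at least 50 there were 309 cells (1.74%), 252 of them myeloid-like, with 101 in which Ifi27l2a alone gave over 50% of the members' UMIs and 185 in which at least 15 members were counted. Cells between these 2 kinds fill the plot of members against score without a gap. Cells scoring at least 50 made up 2.10 to 2.82% of the WT cultures, 0.158 to 0.851% in Fgf23cKO, 1.45 and 1.95% in Dmp1KO and 1.01 to 1.86% in Dmp1KO/Fgf23cKO. WT had the shallowest cells, with a median of 7495 to 7966 UMIs per myeloid-like cell against 22130 to 40026 in the other genotypes. With cells thinned to 1300 UMIs the genotype means moved from 2.36, 0.598, 1.70 and 1.32% to 4.25, 2.24, 2.92 and 3.39%, and the difference of Fgf23cKO to WT was -2.01 percentage points (exact permutation p = 0.1, the smallest possible).

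**Figure D2:**
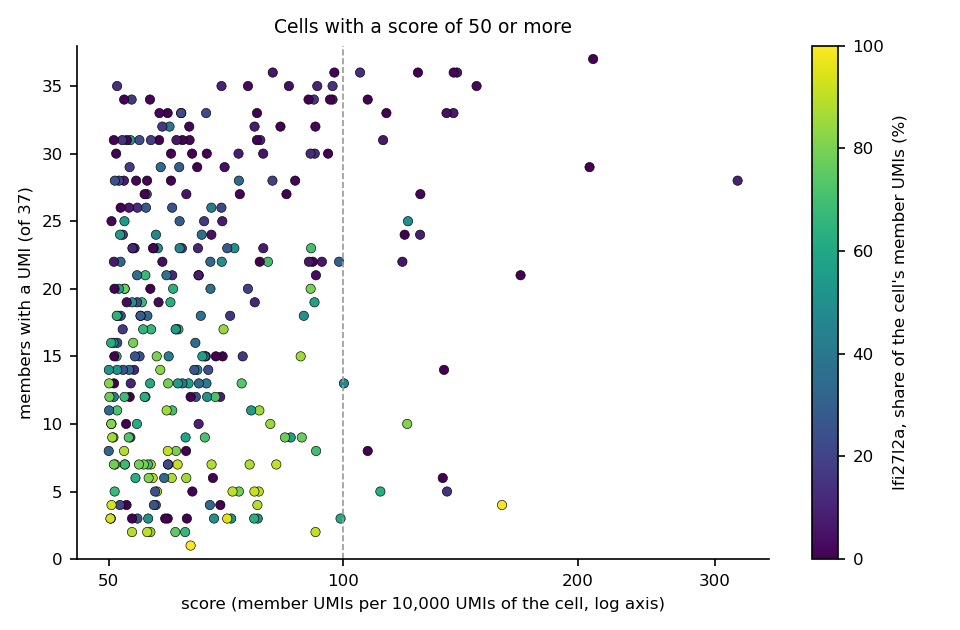
The 309 cells with a score of at least 50, by score (horizontal log axis, members' UMIs per 10000 UMIs) and by the number of the 37 members counted (vertical axis). The colour gives the percent of the members' UMIs from Ifi27l2a, and the dashed line marks a score of 100. The cells span 1 to 37 members with a median of 18, and the 3 cells of the highest scores, 207 to 321, have 28 to 37 members.

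The untagged samples were compared with the tagged cultures of the same genotype. Over all cells their mean score was 1.30 lower, with a lower value in 3 of 4 genotypes (exact permutation test within genotype, two-sided p = 0.0469, adjusted 0.0938 over 4 comparisons), and the p was 0.208 without the untagged WT sample and 0.172 without that of Dmp1KO. The mix of classes differed as well, since stromal-like cells, whose scores are lower, made up 16.7 to 42.9% of the untagged samples and 2.69 to 13.6% of the tagged cultures. In myeloid-like cells the untagged means were 14.7, 15.7, 15.9 and 17.4 in WT, Fgf23cKO, Dmp1KO and Dmp1KO/Fgf23cKO, and the difference of 0.30 lay within the spread of the cultures (exact permutation p = 0.656). In stromal-like cells they were 6.88, 5.31, 5.34 and 11.4 in WT, Fgf23cKO, Dmp1KO and Dmp1KO/Fgf23cKO, higher than the tagged mean in 4 of 4 genotypes by 2.87 on average (exact permutation p = 0.00521, the smallest that 192 relabelings allow, adjusted 0.0208). This stromal difference depended on how cells were classed, and was 0.694 with classes drawn from marker UMIs per cell (exact permutation p = 0.146). These class-wise tests were added after the data were seen.

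Depth moved with that stromal difference. Untagged stromal-like cells had a median of 1003 to 4559 UMIs, against 9881 to 71276 in the tagged cultures. With cells thinned to 1300 UMIs the difference was 0.884 (exact permutation p = 0.141). Thinning keeps the expected score of a cell but leaves out cells below 1300 UMIs. Of all 417 cells of the untagged Dmp1KO/Fgf23cKO sample 216 were left out, and its stromal mean was then 5.58. The thinned value thus compares the deeper cells and does not correct for depth. Without the untagged Dmp1KO/Fgf23cKO sample, whose unthinned mean of 11.4 was the highest, the unthinned difference was 1.24 (exact permutation p = 0.0417). That sample held 179 stromal-like cells by cluster and 62 by marker UMIs per cell. Taken over the summed UMIs of its stromal-like cells, in which deep cells weigh more, its score was 5.47. The tagged cultures of that genotype had 3.62 to 4.83 on the same scale. The myeloid markers summed to 4401 to 8273 CPM in the untagged stromal sums and to 2725 to 6602 in the tagged, and their part in the score was not tested. Cells with a score of at least 100 did not differ detectably, with a difference of -0.032 percentage points (exact permutation p = 0.724).

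Gene by gene, 0 of 37 members tested in myeloid-like cells differed between untagged and tagged samples in edgeR, where 0.00% of all 12982 genes did. At an unadjusted p under 0.05 there were 4 members, where 328 of the 12982 genes were higher and 358 lower. In DESeq2 0 genes were called at the adjusted threshold as well. In stromal-like cells 1 of 30 members tested was higher, against 0.0255% of 11765 genes. An unadjusted p under 0.05 was reached by 9 members, where 425 of the 11765 genes were higher and 395 lower. The 1 member past the adjusted threshold was Ifit3, which binds foreign RNA as part of a complex with Ifit1. Its level in the untagged samples was 12.8 in WT, 32.4 in Fgf23cKO, 26.8 in Dmp1KO and 4.63 in Dmp1KO/Fgf23cKO CPM, above the tagged range of 0.617 to 5.40 in 3 of 4 genotypes, and 6.19-fold higher (log2 difference 2.63, SE 0.38, edgeR adjusted p = 0.0504). Single cells carried it, since 216 of the 250 Ifit3 UMIs of the untagged Fgf23cKO sample (86.4%) came from the 1 stromal-like cell with a score above 100, and 50 of 69 (72.5%) in Dmp1KO from another. Without cells of a score of at least 100 the log2 difference was 1.74 (edgeR adjusted p = 0.242). The same Fgf23cKO cell held 155 of 178 Ifit1 UMIs (87.1%) and 213 of 291 Isg15 UMIs (73.2%).

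The next comparisons ask whether loss of Dmp1, of Fgf23 in Dmp1-expressing cells, or of both went with other levels of these genes. Counts were summed per culture and class and fitted in edgeR over all genes, with a call at an adjusted p under 0.1. The comparisons share their WT or Dmp1KO cultures, so values are set side by side and their overlap is not counted as a result. A bulk difference of a class can come from more cells of a kind or from more RNA per cell, which sums cannot tell apart.

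In myeloid-like cells all 37 members passed the filter on low counts, and they moved in both directions in every comparison. In Fgf23cKO compared with WT 4 members rose and 13 fell, where 25.6% of all 13490 genes rose and 25.0% fell. In Dmp1KO compared with WT 12 rose and 12 fell, beside 35.9 and 34.6% of all genes. In Dmp1KO/Fgf23cKO compared with WT 14 rose and 8 fell, beside 29.5 and 29.8%, and compared with Dmp1KO 15 rose and 10 fell, beside 30.9 and 38.2%. As shares of the 37 members these were 10.8 and 35.1%, 32.4 and 32.4%, 37.8 and 21.6%, and 40.5 and 27.0%. The median log2 difference of the members was -0.18, 0.03, 0.10 and 0.18 in the same order, where the median over all genes was -0.05 in the last comparison and rounded to 0 in the others. Groups of cultures did not overlap for 16, 24, 20 and 26 members, which is 43.2, 64.9, 54.1 and 70.3% of them, where 50.5, 75.5, 60.5 and 77.0% of all genes did not overlap.

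The scaling of the Dmp1KO libraries bears on these splits. Their TMM factors were 0.839 and 0.865, against 1.02 to 1.06 in the other tagged cultures, and without such factors the median of all genes moved to -0.27 in Dmp1KO compared with WT and to 0.27 in Dmp1KO/Fgf23cKO compared with Dmp1KO. The calls then split 8 up and 18 down, and 25 up and 3 down, among members, and among all genes the share of calls that were higher moved from 51.0 to 30.8% and from 44.8 to 71.6%. In Fgf23cKO and in Dmp1KO/Fgf23cKO compared with WT the splits stayed at 4 and 13 and became 16 and 8. Differences that involve Dmp1KO are therefore given relative to the bulk of genes, as TMM gives it. Without the factors Cmpk2, Herc6, Ifi204 and Oas3 were not called in Dmp1KO compared with WT, nor were Ifi204, Oasl2, Rsad2, Samhd1, Xaf1 and Zbp1 in Dmp1KO/Fgf23cKO compared with Dmp1KO, where Irf9 turned to 0.14 (edgeR adjusted p = 0.0504). In clusters 8 and 11 alone, where every culture has cells, 35 members could be tested and the calls were 2 up and 5 down, 8 and 4, 5 and 6, and 5 and 12. Of all 10867 genes tested there 12.99% rose and 12.7% fell, 25.8 and 24.9%, 16.3 and 16.9%, and 20.02 and 25.6%. Of the members called in these clusters 6, 11, 9 and 13 were called over the whole class with the same sign, and Stat2 in the last comparison with the other (-0.40, edgeR adjusted p = 0.0608, against 0.21 over the class). Members called over the class had the other sign in these clusters for Igtp and Stat2 in Fgf23cKO, Ifi47, Ifit1 and Stat2 in Dmp1KO, Ifit2 and Rtp4 in Dmp1KO/Fgf23cKO, and Ifit2, Irf7, Irgm1, Rtp4 and Stat2 in Dmp1KO/Fgf23cKO compared with Dmp1KO.

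Genes of other cells in the myeloid sums moved with genotype as well. The 25 stromal markers summed to 221 to 237 CPM in WT, 340 to 351 in Fgf23cKO, 136 to 143 in Dmp1KO and 499.9 to 515 in Dmp1KO/Fgf23cKO. Osteoclast markers (10 genes, with Calcr at 0) summed to 272 to 382 CPM in WT, 222 to 335 in Fgf23cKO, 725 to 841 in Dmp1KO and 182 to 355 in Dmp1KO/Fgf23cKO. Neutrophil markers (8 genes, with Ly6g and Retnlg at 0) summed to 20.2 to 21.2 in Dmp1KO and to 3.87 to 10.96 in the other genotypes. The 10 genes of dissociation stress were lowest in Dmp1KO, at 1033 to 1045 against 1389 to 1595 elsewhere. The share of mitochondrial UMIs in myeloid-like cells was 2.63 to 2.75% in WT, 3.62 to 3.77% in Fgf23cKO, 3.09 to 3.10% in Dmp1KO and 3.77 to 3.98% in Dmp1KO/Fgf23cKO. Their part in the member levels was not tested. Plasmacytoid dendritic cells, known as strong producers of type I interferon, were not seen as a cluster, and their 6 markers summed to 1.97 to 10.97 CPM, with Klk1 at 0. T and NK cell markers summed to at most 0.623 CPM in the tagged cultures and to 11.04 in the untagged Dmp1KO sample, and B and plasma cell markers to at most 0.873 in the tagged. The part of these values in the differences below was not tested.

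Ifi27l2a and Bst2, the most abundant members, moved apart. Ifi27l2a, given per culture above, was 1.84-fold lower (log2 difference -0.88, SE 0.060, edgeR adjusted p = 5.19e-08) in Fgf23cKO than in WT and 1.54-fold higher (log2 difference 0.63, SE 0.065, edgeR adjusted p = 5.62e-07) in Dmp1KO. In Dmp1KO/Fgf23cKO it was 2.69-fold lower (log2 difference -1.43, SE 0.064, edgeR adjusted p = 2.16e-10) than in Dmp1KO, which placed it below WT by a log2 difference of -0.80 (edgeR adjusted p = 5.31e-08). No culture of 1 group overlapped with another in these 4 comparisons. Within clusters 8 and 11 the log2 differences to WT were -1.30 (edgeR adjusted p = 3.28e-08) in Fgf23cKO, 0.13 (edgeR adjusted p = 0.296) in Dmp1KO and -0.65 (edgeR adjusted p = 2.59e-05) in Dmp1KO/Fgf23cKO, so the rise in Dmp1KO was not called there. In cluster 8 the WT cultures lay at 387 to 516 and the Dmp1KO cultures at 506 to 544 CPM, while in cluster 11 WT lay at 1089 to 1299 and Dmp1KO at 702 to 922. Ifi27l2a was also among the leading genes of cluster 2, which was mostly Dmp1KO cells. By contrast Bst2 was 1.53-fold higher (log2 difference 0.61, SE 0.088, edgeR adjusted p = 5.55e-05) in Fgf23cKO and 2.30-fold higher (log2 difference 1.20, SE 0.088, edgeR adjusted p = 4.73e-08) in Dmp1KO/Fgf23cKO than in WT, and 2.35-fold higher (log2 difference 1.23, SE 0.099, edgeR adjusted p = 4.89e-08) than in Dmp1KO. In Dmp1KO its log2 difference to WT was -0.03 (edgeR adjusted p = 0.795). Within clusters 8 and 11 the differences of Bst2 to WT were 0.62 (edgeR adjusted p = 0.000341), 0.27 (edgeR adjusted p = 0.0558) and 0.91 (edgeR adjusted p = 3.26e-06) in Fgf23cKO, Dmp1KO and Dmp1KO/Fgf23cKO.

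**Figure D3:**
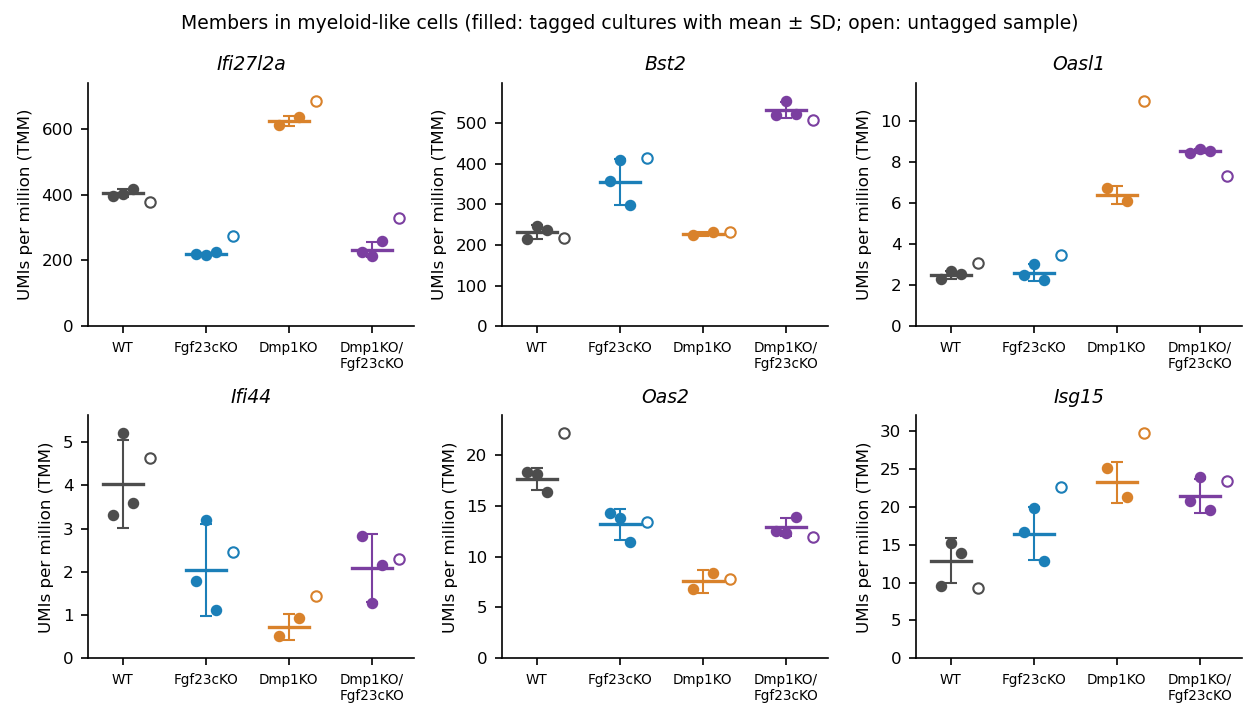
Levels of 6 members in myeloid-like cells by genotype, in CPM on TMM-scaled libraries (vertical axes, each from 0). Filled points are tagged cultures with mean and SD, open points the untagged sample. Ifi27l2a is highest in Dmp1KO (615 and 636) and lowest in both groups with Dmp1-cre (215 to 258.5), Bst2 highest in Dmp1KO/Fgf23cKO (521 to 555), Oasl1 higher in both groups without Dmp1, and Ifi44 and Oas2 lowest in Dmp1KO.

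The groups by role below hold few genes each. Their splits stand beside the shares of all genes given above, at 25.0 to 38.2% per direction, and were not tested as sets. The transcription factors of the pathway did not move together. Of the 4 transcription factors 0 rose and 2 fell in Fgf23cKO, 1 and 2 in Dmp1KO and 2 and 1 in Dmp1KO/Fgf23cKO compared with WT, and 3 and 1 in Dmp1KO/Fgf23cKO compared with Dmp1KO. Irf9, the DNA-binding subunit of ISGF3, stood at 45.2, 44.7 and 42.5 in WT, 32.9, 31.2 and 30.9 in Fgf23cKO, 35.4 and 34.2 in Dmp1KO and 31.5, 31.9 and 28.8 in Dmp1KO/Fgf23cKO. All WT cultures lay above all others, and Irf9 fell in Fgf23cKO, Dmp1KO and Dmp1KO/Fgf23cKO by 0.47, 0.34 and 0.51 on the log2 scale (edgeR adjusted p = 1.79e-05, 0.000155 and 3.49e-06). Its partner Stat2 fell in Fgf23cKO and Dmp1KO, by 0.27 and 0.26 (edgeR adjusted p = 0.0202 and 0.0159), but both changes had the other sign in clusters 8 and 11. Irf7, which amplifies interferon transcription, stood at 10.97, 12.9 and 10.3 in WT, 13.2, 14.2 and 11.7 in Fgf23cKO, 17.4 and 15.8 in Dmp1KO and 18.5, 19.6 and 18.4 in Dmp1KO/Fgf23cKO. It rose in Dmp1KO by a log2 difference of 0.53 (edgeR adjusted p = 0.000293) and in Dmp1KO/Fgf23cKO by a log2 difference of 0.72 (edgeR adjusted p = 2.37e-05), and in clusters 8 and 11 the latter was 0.45 (edgeR adjusted p = 0.269). Irf1, an early responder to interferon gamma, was called only in the comparisons of Dmp1KO/Fgf23cKO, at 28.2, 28.8 and 21.0 against 17.3, 20.1 and 18.6 in WT, with log2 differences of 0.48 (edgeR adjusted p = 0.00253) to WT and 0.49 (edgeR adjusted p = 0.000996) to Dmp1KO.

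The nucleic acid sensors were called in both directions in Dmp1KO, where 35.9% of all genes rose and 34.6% fell. Of the 4 sensors 0 rose and 0 fell in Fgf23cKO, 2 and 1 in Dmp1KO and 2 and 0 in Dmp1KO/Fgf23cKO compared with WT, and 1 and 2 in Dmp1KO/Fgf23cKO compared with Dmp1KO. Ddx58, which encodes the RNA sensor RIG-I, stood at 37.2, 45.1 and 41.9 in WT, 38.2, 41.8 and 30.2 in Fgf23cKO, 27.0 and 27.8 in Dmp1KO and 38.9, 43.1 and 40.0 in Dmp1KO/Fgf23cKO. Dmp1KO was lowest without overlap, with a log2 difference of -0.61 to WT (edgeR adjusted p = 9.95e-05), and Dmp1KO/Fgf23cKO was 0.57 above Dmp1KO (edgeR adjusted p = 0.000104). Zbp1, which senses Z-form nucleic acid, rose in Dmp1KO by a log2 difference of 0.67 (edgeR adjusted p = 0.002) and in Dmp1KO/Fgf23cKO by a log2 difference of 0.36 (edgeR adjusted p = 0.0761). The DNA sensor Ifi204, which has near copies among the Ifi200 genes, rose in Dmp1KO by a log2 difference of 0.34 (edgeR adjusted p = 0.000334), and this change was 0.07 without the scaling factors. Ifih1, the RNA sensor MDA5, rose in Dmp1KO/Fgf23cKO by a log2 difference of 0.26 (edgeR adjusted p = 0.0154).

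In the OAS family, whose synthetases activate RNase L, the members did not move together. Of the 5 genes 1 rose and 1 fell in Fgf23cKO, 3 and 1 in Dmp1KO and 2 and 2 in Dmp1KO/Fgf23cKO compared with WT, and 2 and 2 in Dmp1KO/Fgf23cKO compared with Dmp1KO. Oasl1, which lacks synthetase activity and is known to repress translation of Irf7, stood at 2.31, 2.68 and 2.52 in WT, 2.52, 3.05 and 2.23 in Fgf23cKO, 6.73 and 6.09 in Dmp1KO and 8.45, 8.67 and 8.54 in Dmp1KO/Fgf23cKO. It was 2.53-fold higher (log2 difference 1.34, SE 0.15, edgeR adjusted p = 9.83e-07) in Dmp1KO and 3.37-fold higher (log2 difference 1.75, SE 0.14, edgeR adjusted p = 9.64e-08) in Dmp1KO/Fgf23cKO than in WT, with no overlap, and the log2 difference in clusters 8 and 11 was 1.31 and 2.15. Both groups that lack Dmp1 thus stood above both groups that carry it. Oas2 moved the other way, at 18.3, 18.1 and 16.4 in WT, 14.3, 13.8 and 11.4 in Fgf23cKO, 6.76 and 8.35 in Dmp1KO and 12.5, 12.3 and 13.9 in Dmp1KO/Fgf23cKO. It was 2.32-fold lower (log2 difference -1.22, SE 0.12, edgeR adjusted p = 2.53e-07) in Dmp1KO, and its differences to WT of -0.41 in Fgf23cKO and -0.45 in Dmp1KO/Fgf23cKO also passed the test (edgeR adjusted p = 0.00815 and 0.00264). Oas1a, which has near copies on the same chromosome, rose in Dmp1KO by a log2 difference of 0.66 (edgeR adjusted p = 7.39e-07) and differed from WT by 0.07 (edgeR adjusted p = 0.451) in Fgf23cKO and 0.04 (edgeR adjusted p = 0.694) in Dmp1KO/Fgf23cKO. Oas3 rose in all 3 groups, by 0.22 to 0.30, although in Dmp1KO this was 0.03 without scaling factors. Oasl2, an OAS-like protein with ubiquitin-like domains, fell in Dmp1KO/Fgf23cKO compared with WT by a log2 difference of -0.30 (edgeR adjusted p = 0.0284).

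Of the 3 genes of Isg15 conjugation 0 rose and 0 fell in Fgf23cKO, 2 and 0 in Dmp1KO and 2 and 0 in Dmp1KO/Fgf23cKO compared with WT, and 0 and 0 in Dmp1KO/Fgf23cKO compared with Dmp1KO. Isg15, the ubiquitin-like modifier that is attached to proteins after interferon exposure, stood at 9.53, 15.2 and 13.9 in WT, 16.7, 19.9 and 12.8 in Fgf23cKO, 25.2 and 21.4 in Dmp1KO and 20.9, 24.0 and 19.6 in Dmp1KO/Fgf23cKO. It rose in Dmp1KO by a log2 difference of 0.81 (edgeR adjusted p = 0.0004) and in Dmp1KO/Fgf23cKO by a log2 difference of 0.69 (edgeR adjusted p = 0.00173), and both groups lay above all WT cultures. Herc6, the ligase of Isg15 in mice, rose in the same 2 groups by 0.25 and 0.38 (edgeR adjusted p = 0.0325 and 0.00298), and the former was -0.02 without scaling factors. Usp18, which removes Isg15 and dampens the receptor, ranged from 5.53 to 9.98 over all cultures and was not called in any comparison. Of the 4 IFIT genes 0 rose and 2 fell in Fgf23cKO, 0 and 2 in Dmp1KO and 1 and 0 in Dmp1KO/Fgf23cKO compared with WT, and 2 and 0 in Dmp1KO/Fgf23cKO compared with Dmp1KO. Ifit1 stood at 10.1, 14.2 and 11.7 in WT, 7.69, 12.1 and 5.58 in Fgf23cKO, 9.07 and 6.70 in Dmp1KO and 9.62, 8.96 and 12.8 in Dmp1KO/Fgf23cKO. It fell in Fgf23cKO by a log2 difference of -0.54 (edgeR adjusted p = 0.0789), where the groups overlapped, and in Dmp1KO by a log2 difference of -0.63 (edgeR adjusted p = 0.0254). Ifit3b, a near copy of Ifit3 with which it can share reads, stood at 3.75, 3.79 and 3.18 in WT, 2.66, 2.83 and 1.19 in Fgf23cKO, 1.90 and 1.31 in Dmp1KO and 3.67, 3.26 and 3.25 in Dmp1KO/Fgf23cKO. It fell in Dmp1KO by 1.13 (edgeR adjusted p = 0.00146) and in Fgf23cKO by 0.68 (edgeR adjusted p = 0.0555), and Ifit3 itself was not called. The change in Fgf23cKO was not called without its culture 3 (-0.37, edgeR adjusted p = 0.204) or without WT culture 1 or 2. Ifit2 rose in Dmp1KO/Fgf23cKO by a log2 difference of 0.73 (edgeR adjusted p = 0.0109) but differed by -0.08 in clusters 8 and 11.

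Of the 6 interferon-inducible GTPases 1 rose and 2 fell in Fgf23cKO, 1 and 3 in Dmp1KO and 2 and 1 in Dmp1KO/Fgf23cKO compared with WT, and 3 and 0 in Dmp1KO/Fgf23cKO compared with Dmp1KO. Gbp7, a guanylate-binding protein of a family with close copies, stood at 16.3, 17.4 and 16.2 in WT, 12.3, 15.2 and 9.77 in Fgf23cKO, 6.55 and 9.96 in Dmp1KO and 15.6, 19.1 and 18.5 in Dmp1KO/Fgf23cKO. It was 2.03-fold lower (log2 difference -1.02, SE 0.18, edgeR adjusted p = 0.000122) in Dmp1KO and 2.15-fold higher (log2 difference 1.10, SE 0.16, edgeR adjusted p = 2.56e-05) in Dmp1KO/Fgf23cKO than in Dmp1KO, which put the latter back in the WT range. Irgm1, which acts on autophagy of intracellular bacteria, fell in Fgf23cKO, Dmp1KO and Dmp1KO/Fgf23cKO by 0.37, 0.44 and 0.22. Igtp rose in the same groups by 0.32, 0.59 and 0.62, although in Fgf23cKO it had the other sign in clusters 8 and 11. Gbp2 was not called in any comparison.

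Of the 11 remaining members 2 rose and 6 fell in Fgf23cKO, 3 and 3 in Dmp1KO and 3 and 4 in Dmp1KO/Fgf23cKO compared with WT, and 4 and 5 in Dmp1KO/Fgf23cKO compared with Dmp1KO. Ifi44, an interferon-induced protein of unsettled function, had the largest fold among the members that fell in Dmp1KO. It stood at 3.32, 5.20 and 3.58 in WT, 1.80, 3.19 and 1.12 in Fgf23cKO, 0.508 and 0.928 in Dmp1KO and 2.83, 1.27 and 2.17 in Dmp1KO/Fgf23cKO. These are low counts, of 26 and 41 UMIs in the Dmp1KO cultures and 23, 70 and 44 in WT. Ifi44 was 5.79-fold lower (log2 difference -2.53, SE 0.40, edgeR adjusted p = 5.11e-05) in Dmp1KO, and the differences of -1.02 in Fgf23cKO and -0.96 in Dmp1KO/Fgf23cKO were called too (edgeR adjusted p = 0.0362 and 0.0282). Without WT culture 2 these were -0.78 (edgeR adjusted p = 0.186) and -0.72 (edgeR adjusted p = 0.176), and they were also not called without Fgf23cKO culture 3 and Dmp1KO/Fgf23cKO culture 2. Ifi35, a partner of Nmi that is known to act in inflammation, stood at 25.4, 24.8 and 21.7 in WT, 27.3, 30.6 and 33.5 in Fgf23cKO, 47.9 and 48.2 in Dmp1KO and 31.1, 32.8 and 30.2 in Dmp1KO/Fgf23cKO. It rose in all 3 groups, and was in Dmp1KO 2.02-fold higher (log2 difference 1.02, SE 0.080, edgeR adjusted p = 3.05e-08). Xaf1, an XIAP-associated factor tied to apoptosis, fell in both groups with Dmp1-cre, to 15.4, 19.7 and 17.9 in Fgf23cKO and 19.9, 19.9 and 20.9 in Dmp1KO/Fgf23cKO from 26.7, 30.4 and 32.9 in WT, with log2 differences of -0.78 (edgeR adjusted p = 1.07e-05) and -0.58 (edgeR adjusted p = 5.28e-05).

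Trim30a, which belongs to a family with close copies, stood at 92.4, 91.8 and 88.1 in WT, 78.3, 81.9 and 62.9 in Fgf23cKO, 65.5 and 71.2 in Dmp1KO and 92.3, 97.0 and 92.2 in Dmp1KO/Fgf23cKO. It fell in Fgf23cKO by 0.28 and in Dmp1KO by 0.40, and Dmp1KO/Fgf23cKO cultures lay at the WT level, 0.46 above Dmp1KO (edgeR adjusted p = 0.00901, 0.000543 and 0.000141). Samhd1 fell in both groups with Dmp1-cre by 0.19 and 0.18 compared with WT. Rsad2 stood at 10.1, 8.99 and 19.6 in WT, 8.48, 8.42 and 6.35 in Fgf23cKO, 20.4 and 14.1 in Dmp1KO and 12.8, 14.1 and 8.28 in Dmp1KO/Fgf23cKO. Its fall in Fgf23cKO, -0.76 (edgeR adjusted p = 0.0464), rested on few cells, since 108 of 240 UMIs of WT culture 3 (45.0%) came from 1 cell. Without cells of a score of at least 100 the difference was -0.15 (edgeR adjusted p = 0.625), and without WT culture 3 it was -0.28 (edgeR adjusted p = 0.445). It was also not called without Fgf23cKO culture 3 (-0.63, edgeR adjusted p = 0.133).

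**Figure D4:**
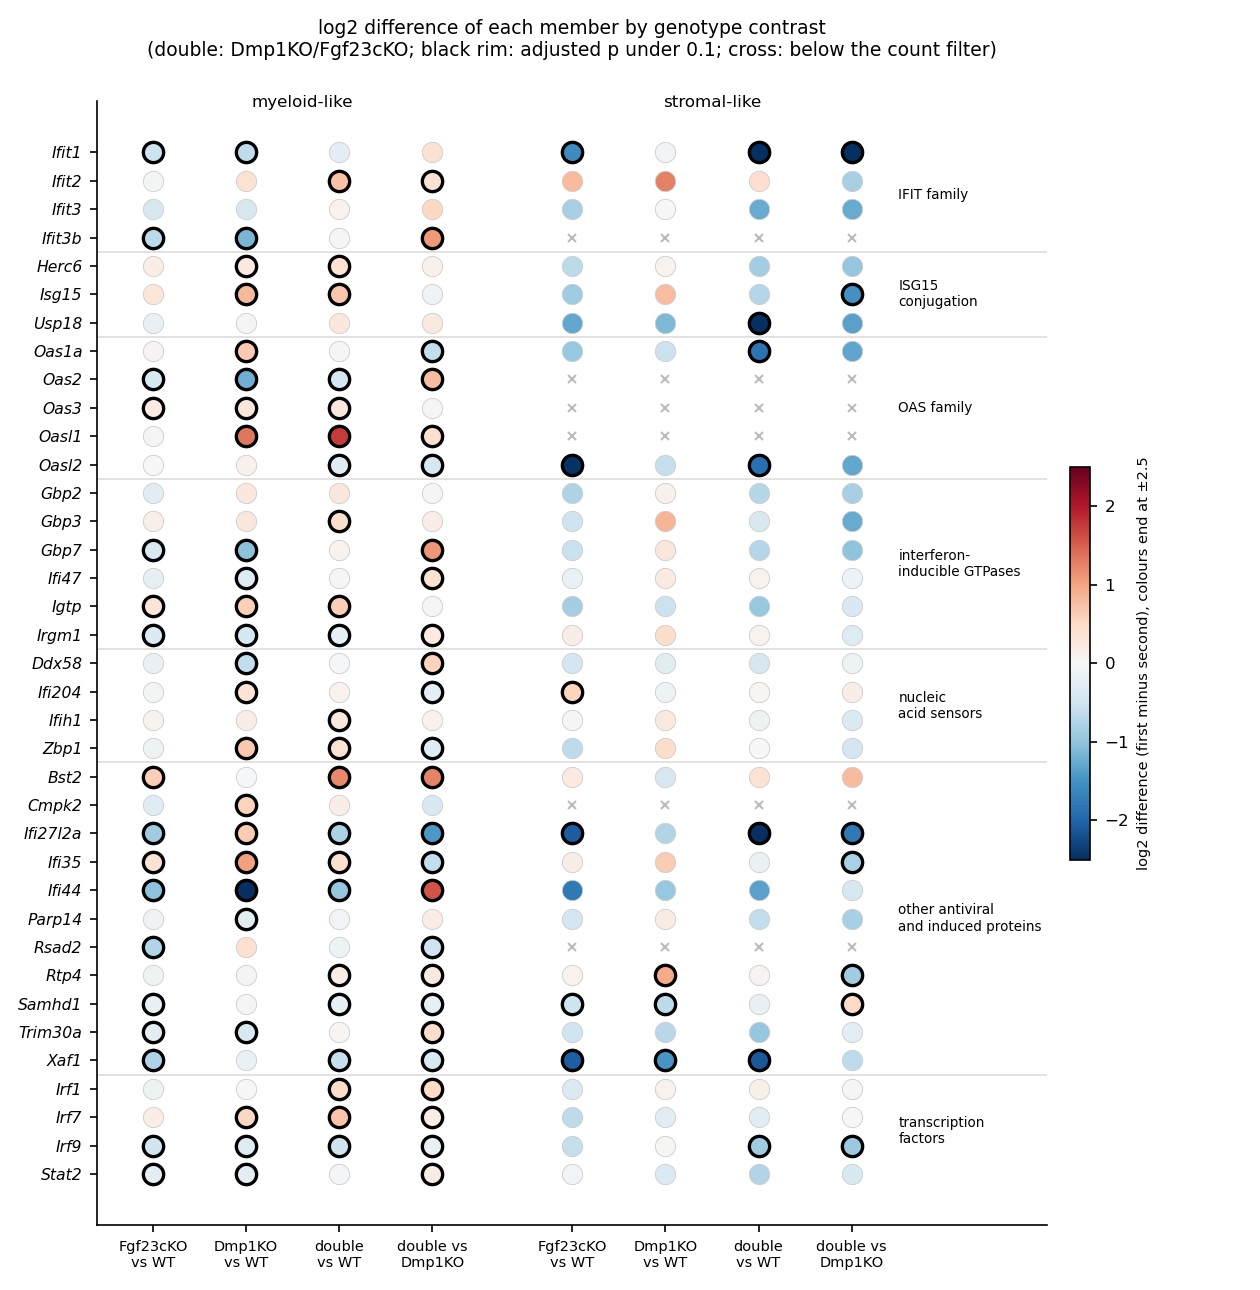
Log2 differences of the 37 members (rows) in 4 comparisons of genotypes, in myeloid-like cells (left block) and stromal-like cells (right block), with double standing for Dmp1KO/Fgf23cKO. Colour runs from -2.5 to 2.5, a black rim marks an edgeR adjusted p under 0.1, and a cross marks a gene below the count filter. In myeloid-like cells rims stand on both colours in every column (4 and 13, 12 and 12, 14 and 8, 15 and 10), and in stromal-like cells most rims are on lower values.

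The stromal-like class held different cells in different genotypes. Over all samples clusters 9, 12, 14 and 16 gave 110, 136, 161 and 72 cells in WT, 162, 101, 54 and 34 in Fgf23cKO, 244, 106, 16 and 6 in Dmp1KO and 170, 92, 132 and 54 in Dmp1KO/Fgf23cKO. Clusters 14 and 16, led by genes of bone-forming cells such as Bglap and Ibsp, were nearly empty in Dmp1KO, where the Bglap sum was lower than in WT by a log2 difference of -4.31 (edgeR adjusted p = 0.00217). The mean interferon scores of the 4 clusters were 3.91, 6.39, 9.35 and 3.55, and the median scores 1.55, 4.82, 2.89 and 2.55. Their median depths were 2744, 50833, 998 and 57651 UMIs per cell. Myeloid markers took 0.791, 0.340, 2.26 and 0.433% of their UMIs. The values below thus compare different mixtures of these cells, as sums in which deep cells weigh more than their number.

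In stromal-like cells 31 members passed the filter on low counts and 6 did not (Cmpk2, Ifit3b, Oas2, Oas3, Oasl1 and Rsad2). Most calls were lower. In Fgf23cKO compared with WT 1 member rose and 5 fell, where 7.72% of 12437 genes rose and 8.28% fell. In Dmp1KO 1 rose and 2 fell, beside 11.3 and 14.1% of all genes. In Dmp1KO/Fgf23cKO 0 rose and 7 fell compared with WT, beside 9.97 and 11.8%, and 1 rose and 6 fell compared with Dmp1KO, beside 6.09 and 4.62%. The median log2 difference of the members was -0.56, 0.01, -0.71 and -0.80 in that order, where the median over all genes was -0.04 to 0.02. The cultures did not overlap for 9, 9, 11 and 16 members, which is 29.0, 29.0, 35.5 and 51.6% of those tested, beside 27.8, 47.1, 34.1 and 44.9% of all genes.

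Without scaling factors the members split 3 up and 2 down in Dmp1KO and 0 and 7 in Dmp1KO/Fgf23cKO compared with WT, and among all genes the share of higher calls moved from 44.5 to 57.3% and from 45.8 to 57.5%. The counts rest on few cultures, and in Dmp1KO/Fgf23cKO compared with Dmp1KO only 1 member was called without culture 2 or 3 of Dmp1KO, a fit in which the lone Dmp1KO culture is assumed to vary like the other groups. Myeloid markers in the stromal sums were at 3078 to 5913 CPM in WT, 2944 to 6602 in Fgf23cKO, 3125 to 5348 in Dmp1KO and 2725 to 3630 in Dmp1KO/Fgf23cKO. In Dmp1KO/Fgf23cKO compared with WT 7 of these 18 markers fell and 0 rose, with a median of -0.74, which is close to that of the members, and the part of myeloid RNA in the lower member levels was not tested. T and NK cell markers (9 genes, with Gzma at 0) summed to 2.12 to 6.54 CPM in the stromal sums of WT, 8.71 to 15.9 in Fgf23cKO, 11.6 to 31.3 in Dmp1KO and 7.40 to 11.1 in Dmp1KO/Fgf23cKO. Of these Trac, a T cell receptor chain, rose in Fgf23cKO and Dmp1KO by 1.85 and 2.04 compared with WT and fell in Dmp1KO/Fgf23cKO compared with Dmp1KO by 1.94 on the log2 scale (edgeR adjusted p = 0.0447, 0.0255 and 0.0334). The part of such cells in the differences below was not tested.

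Ifi27l2a stood at 46.4, 83.7 and 76.9 in WT, 17.5, 16.5 and 14.0 in Fgf23cKO, 53.3 and 29.1 in Dmp1KO and 16.9, 8.64 and 9.84 in Dmp1KO/Fgf23cKO CPM in stromal-like cells. It was 4.21-fold lower (log2 difference -2.07, SE 0.31, edgeR adjusted p = 0.00262) in Fgf23cKO and 5.78-fold lower (log2 difference -2.53, SE 0.31, edgeR adjusted p = 0.000509) in Dmp1KO/Fgf23cKO than in WT, with no overlap, and 3.44-fold lower (log2 difference -1.78, SE 0.33, edgeR adjusted p = 0.0156) than in Dmp1KO. The last difference was -1.30 (edgeR adjusted p = 0.175) without culture 2 of Dmp1KO and -1.16 (edgeR adjusted p = 0.213) with classes from marker UMIs per cell. In these 3 comparisons Ifi27l2a also fell in myeloid-like cells, whereas in Dmp1KO compared with WT it was higher in myeloid-like cells and lower by mean in stromal-like cells, with the test of that difference given below. The stromal level had a median of 7.21% of the myeloid level, among the myeloid marker ratios, and the part of myeloid RNA in it was not tested. Single cells held 25 of 75 Ifi27l2a UMIs in WT culture 2 and 68 of 171 in WT culture 3. They also held 15 of 28 in Fgf23cKO culture 3, 55 of 117 in Dmp1KO culture 2 and 41 of 87 in Dmp1KO/Fgf23cKO culture 1. Bst2 had log2 differences to WT of 0.23 (edgeR adjusted p = 0.647), -0.41 (edgeR adjusted p = 0.386) and 0.38 (edgeR adjusted p = 0.371), and was not called.

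**Figure D5:**
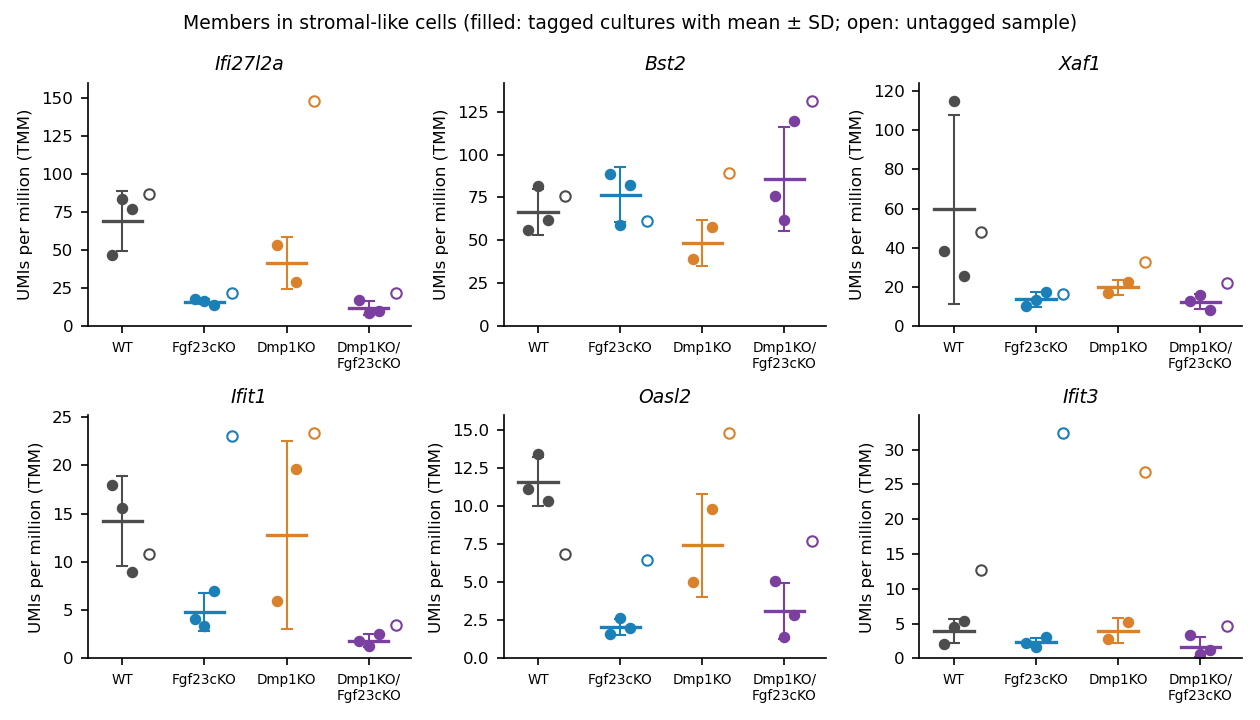
Levels of 6 members in stromal-like cells by genotype, in CPM on TMM-scaled libraries (vertical axes, each from 0). Filled points are tagged cultures with mean and SD, open points the untagged sample. Ifi27l2a and Oasl2 are lower in both groups with Dmp1-cre than in WT, Xaf1 has 1 high WT culture (115), and Ifit3 is high in the untagged Fgf23cKO (32.4) and Dmp1KO (26.8) samples.

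Ifit1 had the largest fold among these calls and stood at 18.01, 15.6 and 8.99 in WT, 4.04, 3.30 and 7.00 in Fgf23cKO, 5.92 and 19.6 in Dmp1KO and 1.75, 1.24 and 2.53 in Dmp1KO/Fgf23cKO. It was 7.69-fold lower (log2 difference -2.94, SE 0.52, edgeR adjusted p = 0.00389) in Dmp1KO/Fgf23cKO than in WT and 7.27-fold lower (log2 difference -2.86, SE 0.53, edgeR adjusted p = 0.0156) than in Dmp1KO, where the higher culture alone stood at 19.6. Without that culture, number 3, the latter difference was -1.72 (edgeR adjusted p = 0.222). Counts were small, with 26, 14 and 20 UMIs in WT and 9, 8 and 9 in Dmp1KO/Fgf23cKO. In Dmp1KO culture 3 a single cell of 47970 UMIs held 23 of the 60 Ifit1 UMIs, and in WT culture 3 a single cell held 10 of the 20. Isg15 stood at 21.5, 17.9 and 9.44 in WT, 8.76, 4.29 and 12.5 in Fgf23cKO, 17.3 and 35.0 in Dmp1KO and 11.2, 7.10 and 9.84 in Dmp1KO/Fgf23cKO. It fell in Dmp1KO/Fgf23cKO compared with Dmp1KO by a log2 difference of -1.50 (edgeR adjusted p = 0.055), and was not called against WT. Without culture 3 of Dmp1KO this was -0.88 (edgeR adjusted p = 0.451), and it was also not called without culture 2 of Dmp1KO, without culture 2 or 3 of Dmp1KO/Fgf23cKO or with either other way of classing cells. The same cell of Dmp1KO culture 3 held 45 of its 107 Isg15 UMIs. Single cells held 10 of 38 Isg15 UMIs in Dmp1KO culture 2, and 12 of 58 and 15 of 35 in cultures 1 and 3 of Dmp1KO/Fgf23cKO. Usp18 fell in Dmp1KO/Fgf23cKO compared with WT by a log2 difference of -2.49 (edgeR adjusted p = 0.0418), on 3, 7 and 10 UMIs in WT and 6, 5 and 1 in Dmp1KO/Fgf23cKO, and the call was lost when each of 4 single cultures was left out in turn (edgeR adjusted p = 0.101 to 0.129).

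Oasl2 stood at 11.1, 13.4 and 10.3 in WT, 1.57, 2.64 and 1.999 in Fgf23cKO, 5.01 and 9.82 in Dmp1KO and 5.04, 1.39 and 2.81 in Dmp1KO/Fgf23cKO. The WT cultures lay above those of all other groups, and Oasl2 was 5.51-fold lower (log2 difference -2.46, SE 0.50, edgeR adjusted p = 0.0123) in Fgf23cKO and 3.71-fold lower (log2 difference -1.89, SE 0.46, edgeR adjusted p = 0.0178) in Dmp1KO/Fgf23cKO. Oas1a fell in Dmp1KO/Fgf23cKO compared with WT by a log2 difference of -1.84 (edgeR adjusted p = 0.0414), on 7, 7 and 8 UMIs in WT and 6, 5 and 9 in Dmp1KO/Fgf23cKO. Its stromal level had a median of 8.81% of the myeloid level, among the myeloid marker ratios, and the part of myeloid RNA in it was not tested. Xaf1 stood at 38.1, 115 and 25.6 in WT, 10.1, 13.2 and 17.5 in Fgf23cKO, 16.9 and 22.6 in Dmp1KO and 12.6, 16.1 and 8.43 in Dmp1KO/Fgf23cKO. It fell in Fgf23cKO by a log2 difference of -2.07 (edgeR adjusted p = 0.024), in Dmp1KO by a log2 difference of -1.47 (edgeR adjusted p = 0.0809) and in Dmp1KO/Fgf23cKO by a log2 difference of -2.12 (edgeR adjusted p = 0.0114). The high value of WT culture 2 came from 1 cell that held 65 of its 103 Xaf1 UMIs (63.1%), and without that culture the Dmp1KO difference was -0.66 (edgeR adjusted p = 0.23). It was also not called without either Dmp1KO culture. With all clusters joined to the nearer class the Fgf23cKO difference of Xaf1 was -0.98 (edgeR adjusted p = 0.197) and that of Oasl2 -1.62 (edgeR adjusted p = 0.103), and with classes from marker UMIs per cell the Dmp1KO/Fgf23cKO difference of Oasl2 was -1.37 (edgeR adjusted p = 0.111). The call of Oas1a was lost without WT culture 2 or without culture 1 or 2 of Dmp1KO/Fgf23cKO (edgeR adjusted p = 0.108 to 0.125).

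Irf9 fell in Dmp1KO/Fgf23cKO by 0.90 compared with WT and by 0.93 compared with Dmp1KO (edgeR adjusted p = 0.0613 and 0.0963), and the latter call was lost when each of 8 single cultures was left out in turn, for example at -0.75 (edgeR adjusted p = 0.419) without culture 2 of Dmp1KO, and with a replicate block (-0.86, edgeR adjusted p = 0.2). Samhd1, given per culture above, fell in Fgf23cKO by a log2 difference of -0.52 (edgeR adjusted p = 0.0441) and in Dmp1KO by a log2 difference of -0.67 (edgeR adjusted p = 0.0165), and Dmp1KO/Fgf23cKO lay 0.50 above Dmp1KO (edgeR adjusted p = 0.088). The difference in Fgf23cKO was -0.37 (edgeR adjusted p = 0.186) without WT culture 3, and that of Dmp1KO -0.47 (edgeR adjusted p = 0.159) without its culture 2. Rtp4, a receptor transporter protein that limits interferon responses, stood at 6.23, 10.0 and 6.75 in WT, 8.09, 6.93 and 8.50 in Fgf23cKO, 12.3 and 16.0 in Dmp1KO and 6.60, 8.33 and 8.15 in Dmp1KO/Fgf23cKO. It rose in Dmp1KO by a log2 difference of 0.95 (edgeR adjusted p = 0.0388) and was lower again in Dmp1KO/Fgf23cKO (log2 difference to Dmp1KO -0.89, edgeR adjusted p = 0.063). The rise was 0.74 (edgeR adjusted p = 0.248) without culture 3 of Dmp1KO and 0.86 (edgeR adjusted p = 0.127) without WT culture 3, and it was not called with DESeq2 (0.99, DESeq2 adjusted p = 0.102) or with all clusters (0.83, edgeR adjusted p = 0.167). The difference to Dmp1KO was not called when each culture of these 2 groups was left out in turn (edgeR adjusted p = 0.113 to 0.38), with DESeq2 (DESeq2 adjusted p = 0.11), with all clusters (edgeR adjusted p = 0.189), with no filter (edgeR adjusted p = 0.125) or with a replicate block (edgeR adjusted p = 0.148). Ifi35 fell in Dmp1KO/Fgf23cKO compared with Dmp1KO by a log2 difference of -0.80 (edgeR adjusted p = 0.0766), a call lost without either Dmp1KO culture, without culture 2 or 3 of Dmp1KO/Fgf23cKO (edgeR adjusted p = 0.163 to 0.372) and with a replicate block (edgeR adjusted p = 0.131). Ifi204 was the 1 member that rose in Fgf23cKO, at 64.5, 61.7 and 65.0 against 42.9, 50.2 and 39.6 in WT (log2 difference 0.55, edgeR adjusted p = 0.0597). This call was lost without culture 1 or 3 of either group (edgeR adjusted p = 0.111 to 0.2) and with either other way of classing cells (edgeR adjusted p = 0.106 and 0.203).

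Whether the effect of genotype differed between the classes was tested as an interaction in 1 fit over both, for 37 members. The genotype effect was more negative in stromal-like than in myeloid-like cells for 1 member in Fgf23cKO compared with WT, beside 1.83% of 12375 genes called in either direction. In Dmp1KO it was higher for 3 and lower for 3, beside 17.3%, in Dmp1KO/Fgf23cKO compared with WT higher for 0 and lower for 7, beside 5.90%, and compared with Dmp1KO higher for 1 and lower for 14, beside 26.1%. Leaving out single cultures moved these counts to between 1 and 2, 2 and 7, 2 and 8, and 5 and 14. The lowest counts of the last 3 comparisons were without Dmp1KO culture 3, without culture 2 of WT or of Dmp1KO/Fgf23cKO, and without culture 2 of Dmp1KO/Fgf23cKO.

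For Ifit1 the difference between stromal and myeloid effects was -2.75 (edgeR adjusted p = 0.0354) in Dmp1KO/Fgf23cKO compared with WT and -3.43 (edgeR adjusted p = 0.00318) compared with Dmp1KO. Ifi27l2a had a more negative effect in stromal-like cells in Dmp1KO/Fgf23cKO, by -1.73 (edgeR adjusted p = 0.00784), and its Dmp1KO effect was also lower there, -1.25 (edgeR adjusted p = 0.0207). Its median stromal level was 7.21% of the myeloid level, among the myeloid marker ratios. The part of myeloid RNA in these 2 differences was not tested. For Oasl2 the differences were -2.46 (edgeR adjusted p = 0.0293) in Fgf23cKO and -1.64 (edgeR adjusted p = 0.0445) in Dmp1KO/Fgf23cKO compared with WT. Gbp7 had the reverse pattern in the 2 comparisons with Dmp1KO, at 1.40 (edgeR adjusted p = 0.0366) against WT and -2.23 (edgeR adjusted p = 0.0013) in Dmp1KO/Fgf23cKO against Dmp1KO. Rtp4 had 1.17 (edgeR adjusted p = 0.017) and -1.29 (edgeR adjusted p = 0.00234). Isg15 was called against Dmp1KO only, at -1.55 (edgeR adjusted p = 0.0429). Oasl1 was called in Dmp1KO and in Dmp1KO/Fgf23cKO compared with WT, but its stromal counts were 0 to 4 UMIs per tagged culture, so no fold is given for stromal-like cells.

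Transcripts of the ligands that induce these genes were hardly counted. The study warns that 3′ droplet data can miss genes of low expression, so low counts do not show that the ligands were absent. Of 21 interferon genes in the matrices 16 had no UMI in 17793 cells, so that by counting error alone at most 0.0169% of cells could hold a UMI of each. Type I interferons gave 71 UMIs in all, of which 68 were Ifnk, an epithelial type I interferon, with 17 in WT, 1 in Fgf23cKO, 32 in Dmp1KO and 18 in Dmp1KO/Fgf23cKO. Ifnb1, the interferon that cells make early after infection, had 1 UMI. Interferon gamma (Ifng) had 5, all in Dmp1KO. No ligand passed the filter on low counts.

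Receptors and signaling genes of the pathway were measured from lists of genes with those roles. In myeloid-like cells 2 of 5 receptor genes rose and 1 fell in Fgf23cKO compared with WT, 2 rose and 3 fell in Dmp1KO, 3 rose and 1 fell in Dmp1KO/Fgf23cKO, and 3 rose and 1 fell in Dmp1KO/Fgf23cKO compared with Dmp1KO. Of all genes 25.6% rose and 25.0% fell, 35.9 and 34.6%, 29.5 and 29.8%, and 30.9 and 38.2% in the same order. Ifnar1, a subunit of the type I receptor, stood at 95.5, 96.8 and 93.5 in WT, 83.2, 86.8 and 86.0 in Fgf23cKO, 68.7 and 70.2 in Dmp1KO and 79.9, 79.9 and 76.6 in Dmp1KO/Fgf23cKO. All WT cultures lay above all others, with log2 differences of -0.16 (edgeR adjusted p = 0.0113), -0.45 (edgeR adjusted p = 7.61e-07) and -0.27 (edgeR adjusted p = 0.000122). In stromal-like cells Ifnar1 fell in Dmp1KO by a log2 difference of -0.83 (edgeR adjusted p = 0.0098) and in Dmp1KO/Fgf23cKO by a log2 difference of -0.79 (edgeR adjusted p = 0.0062), as 1 of 2 receptor genes that fell in the former and the only one in the latter. Of all genes 14.1% fell in the former and 11.8% in the latter.

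Of 10 signaling genes 5 rose and 1 fell in Fgf23cKO, 2 and 1 in Dmp1KO, and 6 and 1 in Dmp1KO/Fgf23cKO compared with WT in myeloid-like cells, and 6 rose and 2 fell compared with Dmp1KO. The shares of all genes in these comparisons are those given above beside the receptor genes. Socs3, which dampens cytokine receptors, stood at 5.34, 2.01 and 3.67 in WT, 4.53, 5.74 and 3.21 in Fgf23cKO, 3.56 and 4.46 in Dmp1KO and 9.45, 9.35 and 11.7 in Dmp1KO/Fgf23cKO and rose in Dmp1KO/Fgf23cKO by a log2 difference of 1.57 (edgeR adjusted p = 8.19e-05). Socs1, the main brake on interferon receptors, fell there by a log2 difference of -0.78 (edgeR adjusted p = 0.0302). Of 20 genes that sense nucleic acid or induce interferon 3 rose and 5 fell, 7 and 7, 4 and 8, and 5 and 9 in the 4 myeloid comparisons, beside the same shares. Tlr3, a receptor for double-stranded RNA, stood at 25.3, 27.8 and 23.5 in WT, 14.0, 12.8 and 13.5 in Fgf23cKO, 11.5 and 11.2 in Dmp1KO and 12.8, 12.01 and 11.02 in Dmp1KO/Fgf23cKO. WT was above all other groups, with log2 differences of -0.93 (edgeR adjusted p = 1.06e-06), -1.17 (edgeR adjusted p = 1.69e-08) and -1.08 (edgeR adjusted p = 7.25e-08), and Tlr3 fell in the same 3 comparisons in stromal-like cells. Tlr7, a receptor for single-stranded RNA, was lowest in Dmp1KO at 59.5 and 71.3 against 119.5, 146 and 135 in WT (log2 difference -1.04, edgeR adjusted p = 1.3e-07).

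Interferon-induced genes outside the 39 moved in both directions as well. Of 57 tested in myeloid-like cells 8 rose and 21 fell in Fgf23cKO, 23 and 18 in Dmp1KO, and 14 and 15 in Dmp1KO/Fgf23cKO compared with WT, and 18 rose and 21 fell compared with Dmp1KO. Of all genes 25.6% rose and 25.0% fell, 35.9 and 34.6%, 29.5 and 29.8%, and 30.9 and 38.2% in the same order. Psmb8, a subunit of the immunoproteasome, stood at 89.3, 84.3 and 91.5 in WT, 136, 135 and 138 in Fgf23cKO, 235 and 219 in Dmp1KO and 141, 149 and 152 in Dmp1KO/Fgf23cKO, and rose in Dmp1KO/Fgf23cKO by a log2 difference of 0.74 (edgeR adjusted p = 2.16e-08). Ly6e, a membrane protein that restricts virus entry, fell in Fgf23cKO by a log2 difference of -0.82 (edgeR adjusted p = 3.72e-05) and in Dmp1KO/Fgf23cKO by a log2 difference of -0.73 (edgeR adjusted p = 6.94e-05). Iigp1, an immunity-related GTPase, was lowest in Dmp1KO at 0.665 and 0.973 against 4.19, 4.53 and 3.42 in WT (log2 difference -2.31, edgeR adjusted p = 1.48e-05). Ciita, the switch for MHC class II genes that interferon gamma induces, was at 2.11 and 2.76 in Dmp1KO and at 0 to 0.446 in all other tagged cultures (log2 difference to WT 3.95, edgeR adjusted p = 4.79e-05). Myeloid-like cluster 7, led by Cd74, H2-Aa, H2-Ab1 and H2-Eb1, held 880 Dmp1KO cells of 918. Whether the Ciita counts came from that cluster, or had to do with interferon, was not tested. In stromal-like cells 2 rose and 8 fell, 7 and 7, 4 and 9, and 2 and 5 of 52 in the same order of comparisons. Of all genes there 7.72% rose and 8.28% fell, 11.3 and 14.1%, 9.97 and 11.8%, and 6.09 and 4.62%.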

How the data were processed

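Single-cell 3′ RNA-seq (CellPlex, Chromium v3.1) gave 15 filtered matrices from 11 tagged cultures and 4 untagged samples. Per the submitters' processing notes, the authors made them with Cell Ranger 7.0.1 on mm10, and cells with several tags were removed. Deposited values were raw counts of UMIs per gene and cell, and no doublet caller was run here. A matrix of Dmp1KO culture 1 was not analysed here (its barcode list holds 1935 cells). Total counts per sample were 3560752 to 72482185 UMIs.

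Cells were clustered as in the study's methods with Seurat 5.3.0 and sctransform 0.4.2 in R 4.3.3 (30 principal components, resolution 0.8). Clusters were named from marker genes, and rebuilt names can differ from those of the study. Counts were summed per sample and class (at least 10 cells) and tested with edgeR 4.0.16 (TMM, filterByExpr, quasi-likelihood F test, Benjamini-Hochberg over all genes tested, threshold 0.1), with tagged cultures only between genotypes and all 15 samples, with genotype as a term, for untagged against tagged. Scores were compared by exact two-sided permutation tests. Python 3.11.15, numpy 2.4.6, pandas 2.3.3, scipy 1.17.1 and matplotlib 3.10.9 were used. Alternatives were DESeq2 1.42.0, other factors, filters, classes, thresholds, thinning and leaving out each sample. On simulated counts for Dmp1KO compared with WT, 85.5% of 200 genes changed 2-fold were recovered in myeloid-like cells (13490 genes) and 39.5% in stromal-like cells (12437 genes), with 11.9 and 12.2% of calls false. The simulation changed as many genes up as down and gave all cultures 1 composition otherwise. In the myeloid data 35.9% of genes rose and 34.6% fell in this comparison. The simulation thus does not test the scaling of the Dmp1KO libraries, and its shares need not hold for the data.

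The members and lists were chosen with earlier results of these data known. Values per culture are given for the 6 members of highest level per class and for up to 6 called members per comparison without overlap between groups, by size of the log2 difference. Other members were named to complete the groups by role, after their values were seen. Counts of Ifit3 and Ifit3b, the Oas1, Gbp, Ifi200 and Trim30 genes are uncertain where near copies share reads.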

Additional observations from a re-analysis of the deposited data

Results flagged for a closer look

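Of 105 groups of 4 samples examined, 5 held a sample far from the others, which is 4.76%, and chance flags about 1 group in 20. In myeloid-like cells these were the untagged Fgf23cKO sample for Ifi27l2a, at 275 CPM, and the untagged Dmp1KO/Fgf23cKO sample for Oasl1, at 7.35. In stromal-like cells they were the untagged Fgf23cKO sample for Ifit3, at 32.4, the untagged Dmp1KO/Fgf23cKO sample for the mean score, at 11.4, and culture 1 of Dmp1KO/Fgf23cKO for Ifi204, at 56.1.

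The genotype effect of 18 gene and comparison pairs among the named members differed between stromal-like and myeloid-like cells (edgeR interaction test, adjusted p under 0.1), given as the stromal minus the myeloid log2 difference. In Fgf23cKO compared with WT it was -2.46 for Oasl2. In Dmp1KO compared with WT it was -0.56 for Samhd1, 1.40 for Gbp7, 1.17 for Rtp4 and -3.70 for Oasl1. In Dmp1KO/Fgf23cKO compared with WT it was -1.64 for Oasl2, -4.77 for Oasl1, -1.92 for Oas1a, -2.81 for Usp18, -1.73 for Ifi27l2a and -2.75 for Ifit1. Compared with Dmp1KO it was -2.23 for Gbp7, -2.01 for Ifi44, -1.55 for Isg15, -0.91 for Irf9, -1.29 for Rtp4, -2.80 for Ifit3b and -3.43 for Ifit1. The values of Oasl1 rest on 0 to 4 stromal UMIs per tagged culture and depend on the prior count of the fit. That of Ifit3b rests on 6 and 5 stromal UMIs in Dmp1KO and 7, 2 and 2 in Dmp1KO/Fgf23cKO, and Ifit3b did not pass the stromal filter on low counts. For Ifi27l2a and Oas1a the median stromal level lay among the myeloid marker ratios, and the part of myeloid RNA in their values was not tested.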

How the results depend on the processing

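Counts of members called in myeloid-like cells stayed within 1.5 times of the reported counts under every alternative run except clusters 8 and 11 alone, which gave 7, 12 and 11 calls in Fgf23cKO, Dmp1KO and Dmp1KO/Fgf23cKO compared with WT and test fewer cells. Leaving out single samples gave 12 to 20, 21 to 28 and 19 to 24 calls there and 23 to 29 in Dmp1KO/Fgf23cKO compared with Dmp1KO. Under clusters 8 and 11 Ifit2 turned to -0.083 in Dmp1KO/Fgf23cKO compared with WT. Untagged against tagged myeloid sums gave 3 calls with no filter on low counts.

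Stromal counts moved more. Fgf23cKO compared with WT gave 3 calls with all clusters joined to the nearer list. Dmp1KO compared with WT gave 5 on library totals and 6 with no filter, and 2 to 5 without single samples. Dmp1KO/Fgf23cKO compared with WT gave 4 to 9 without single samples. Dmp1KO/Fgf23cKO compared with Dmp1KO gave 2 at a threshold of 0.05, 3 with all clusters, 4 with classes from marker UMIs per cell, 12 with the samples numbered 4 as replicates and 1 to 8 without single samples. The call of Ifit3 in untagged stromal sums was lost, leaving 0, at a threshold of 0.05, with all clusters, with classes per cell, without cells of a score of at least 100 and without the untagged Fgf23cKO or Dmp1KO sample (range 0 to 1), and no filter gave 2. Calls of a difference between classes ranged from 1 to 2, 2 to 7, 2 to 8 and 5 to 14 without single samples.

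The replicate numbers did not pair the samples (r of deviations -0.107 to 0.0734 over 15 myeloid pairs and -0.145 to 0.149 over 15 stromal pairs). With a replicate block the stromal count in Dmp1KO/Fgf23cKO compared with Dmp1KO was 3, and the other block counts stayed within 1.5 times.

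Score differences depended on Ifi27l2a, on Bst2 and on the classes. Without Ifi27l2a the myeloid differences to WT were 0.458 in Fgf23cKO, -1.85 in Dmp1KO and 3.59 in Dmp1KO/Fgf23cKO, and 5.44 compared with Dmp1KO, and the stromal ones -1.61 in Fgf23cKO and -1.33 in Dmp1KO/Fgf23cKO. Without Bst2 the myeloid differences were -2.78, -0.060 and -1.40 to WT and -1.34 compared with Dmp1KO. With classes per cell they were -2.95, -1.57 and 0.432 in myeloid-like cells and -0.924 in stromal-like cells of Fgf23cKO, and with all clusters -3.16, -1.51, 0.137 and, compared with Dmp1KO, 1.65. Thinning gave 2.94 in myeloid-like cells and -1.64 in stromal-like cells compared with Dmp1KO, and -2.90 in stromal-like cells compared with WT. The share of high cells differed by -1.76, -0.661 and -1.04 percentage points from WT and by -0.380 from Dmp1KO at a cut of 50, by -2.01, -1.33, -0.865 and 0.466 in the same order at that cut with cells thinned, by -0.0467 in Fgf23cKO and Dmp1KO at a cut of 200, and by -0.0436 in Dmp1KO without Ifi27l2a. The untagged stromal difference was 0.884 thinned and 0.694 with classes per cell (exact permutation p = 0.141 and 0.146). The untagged difference over all cells was -1.75 to -0.905 without single samples. All clusters, clusters 8 and 11, library totals, the removal of high cells or of Bst2 and the thinned cut of 50 were chosen after seeing the data, and the cause of these shifts was not tested.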
